A study of Mus musculus with 367 samples.

Results

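The genes described here are 37 members of the glycolysis and hypoxia response pathway, named one by one in a list, of 50600 genes in the expression matrices, and all 37 were present. They comprise glucose entry (Slc2a1, Slc2a3), upper glycolysis from hexokinase to triosephosphate isomerase, lower glycolysis from Gapdh to Pkm, the fate of pyruvate and lactate, the HIF α subunits with prolyl hydroxylases, and other hypoxia response genes. Glycolysis breaks glucose down to pyruvate, and cells short of oxygen rely on it together with lactate production. Hypoxia-inducible factors (HIF) are transcription factors whose α subunits are hydroxylated by prolyl hydroxylases and destroyed when oxygen is present, and stabilised when it is scarce. They then raise glucose transporters, most glycolytic enzymes and genes for mitophagy, pH control and vascular signals, a response known from wounds, whose vessels have been cut.

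The values came from full-length single-cell RNA-seq of cells from 1.5 cm square full-thickness wounds on the back of Sm22-Cre;tdTomato mice of mixed background, 3 to 8 weeks old. In these mice Cre under the Sm22 (Tagln) promoter switches on the red reporter tdTomato, so contractile cells and any cell that once used that promoter are labelled, and viable tdTomato-high cells were sorted. All groups shared this genotype and this sort, and none was unwounded. Cells were collected at post-wounding day (PWD) 12 (3 microfluidic captures), PWD15 (2 captures) and PWD21 (2 captures), 367 cells in all. For 40 cells of PWD12 the title names capture 3 and the description names the matrix of capture 2. The title was followed, and the values of PWD12 capture 3 rest on that choice. With it, the columns of the capture 2 matrix were all taken by the 65 cells titled capture 2. Those of the capture 3 matrix were all taken by these 40 cells. Wounds of 2 to 3 animals were pooled per time point and the labels do not tie captures to animals, so the p-values below measure the spread between captures, which may be technical. Values are fragments per kilobase of transcript and sequencing depth (FPKM), which allow levels to be compared between genes per length.

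Of the 367 cells, 292 passed the filters on depth, gene number and mitochondrial share. By single marker genes 198 were matrix cells (Col1a1 of at least 1000 FPKM, Rgs5 under 100 and Tyrobp under 50), 57 mural cells (Rgs5 of at least 500, Tyrobp under 50), 26 myeloid cells (Tyrobp of at least 500) and 11 of no kind. Other markers went with these names. The other 8 mural markers (pericyte and vascular smooth muscle genes, without Rgs5) summed to between 1187 and 2275 FPKM in mural captures and to at most 50.3 in matrix captures, and the other 8 myeloid markers, without Tyrobp, to between 20862 and 33540.3 FPKM in myeloid captures and at most 60.1 in matrix captures. The name mural rests on these genes alone. Whether the cells lay on vessels was not measured here, and the study counts cells that express Rgs5 among the fibroblasts of the wound. Collagen transcripts were not absent from the other kinds. The median cell had 607 FPKM of Col1a1 in mural cells and 12.9 in myeloid cells, against 7046 in matrix cells. Means over cells were higher, at 2122 FPKM in mural, 1032 in myeloid and 8354 in matrix cells. Col1a1 was above 0 in all 26 myeloid cells. The study describes tdTomato cells that express Lyz2 and Ptprc as myofibroblasts with myeloid features. Median estimated depth was 1462270 fragments in matrix, 1216190 in mural and 2102230 in myeloid cells, and the deposited values hold no counts. Levels below are means over the cells of a kind in 1 capture, with the capture as the replicate.

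To show the sequence context of this pathway, the 250 bases before a RefSeq start site (GRCm38.p6) were searched for the core letters bound by HIF, ACGTG or GCGTG, on either strand. These letters overlap on opposite strands in CACGTG. RefSeq promoters were found for 33 of the 37 genes, with 50 start sites, and Epas1, Slc2a3, Ndrg1 and Bnip3l were not matched. One or both motifs were in 39 of 50 member promoters (78%) and in 38.6% of the 32851 promoters of all genes. A match is a description of letters only. The windows printed below have no annotated exon in them. They belong to Ldha (lactate dehydrogenase A) and Aldoa (aldolase A), shown because both were higher in mural cells of every capture compared, to Adm (the vascular peptide adrenomedullin), the member called in myeloid cells, and to Pgk1 (phosphoglycerate kinase), for comparison. Capitals mark the motif on either strand.
Ldha (chr7:46845554-46845803, plus strand): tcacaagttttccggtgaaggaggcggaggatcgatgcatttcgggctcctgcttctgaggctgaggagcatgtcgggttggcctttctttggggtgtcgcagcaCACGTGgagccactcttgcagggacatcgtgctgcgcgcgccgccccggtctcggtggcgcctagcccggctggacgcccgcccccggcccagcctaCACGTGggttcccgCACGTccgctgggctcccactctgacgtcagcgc
Aldoa (chr7:126799255-126799504, minus strand): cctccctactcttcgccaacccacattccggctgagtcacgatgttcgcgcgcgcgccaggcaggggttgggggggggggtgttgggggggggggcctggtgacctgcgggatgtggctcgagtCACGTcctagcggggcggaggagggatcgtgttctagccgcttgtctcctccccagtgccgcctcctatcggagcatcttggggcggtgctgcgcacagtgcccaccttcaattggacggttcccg
Adm (chr7:110627407-110627656, plus strand): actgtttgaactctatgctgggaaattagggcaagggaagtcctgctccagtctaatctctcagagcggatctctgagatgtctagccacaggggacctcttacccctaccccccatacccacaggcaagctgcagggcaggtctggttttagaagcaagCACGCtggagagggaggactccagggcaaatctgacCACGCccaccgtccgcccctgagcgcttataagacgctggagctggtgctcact
Pgk1 (chrX:106186850-106187099, plus strand): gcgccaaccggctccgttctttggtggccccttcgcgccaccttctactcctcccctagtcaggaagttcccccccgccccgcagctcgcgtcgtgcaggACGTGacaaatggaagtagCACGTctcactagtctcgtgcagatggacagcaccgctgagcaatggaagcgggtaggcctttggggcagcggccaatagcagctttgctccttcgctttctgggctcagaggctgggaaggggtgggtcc
The Ldha window lies within the Ldha gene and the Aldoa window within Aldoa, each before an alternative start. The Aldoa window also lies within the span of Fam57b, and the Adm window within that of Gm28863.

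In matrix cells, the fibroblast-like majority, Aldoa was the most abundant member at 377 ± 124 FPKM (SD, n = 7 captures). Its 7 captures read 377, 489, 474, 257, 286, 224 and 533 FPKM, in the order PWD12 captures 1 to 3, PWD15 captures 1 and 2, and PWD21 captures 1 and 2. Aldoa was above 0 in 186 of 198 matrix cells. Gapdh followed at 288 ± 71.3 FPKM (SD, n = 7 captures), with captures of 279, 398, 319, 313, 192, 204 and 309.6. The capture ranges of Aldoa and Gapdh overlapped. Bnip3l, a mitophagy receptor of the mitochondrial membrane, stood at 216 ± 79.4 FPKM (SD, n = 7 captures), and Ldha at 193 ± 33.4 FPKM (SD, n = 7 captures). Ldha varied least of these, between 147 and 238 FPKM over captures.

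Pkm (pyruvate kinase), Hk2 (hexokinase 2), Gpi1, Eno1, Pgk1 and Tpi1 formed a middle tier with means between 77.1 and 117 FPKM. Hk2 was above 0 in 115 of 198 matrix cells with a median of 9.82 FPKM in these, while 1 cell held 2120 FPKM, and its capture means ran from 12.8 to 179 FPKM. Near the bottom, Aldoc was above 0 in 2 of 198 matrix cells, Egln3 in 2 of 198, Car9 in 3 of 198 and Ddit4 in 6 of 198. Car9 (a carbonic anhydrase known as a strict hypoxia target), Egln3 and Ddit4 had means of at most 1.198 FPKM. Low members also included Epas1, at 0.408 FPKM, while Hif1a, the other HIF α subunit gene listed, was at 20.9 ± 8.15 FPKM (SD, n = 7 captures). The plot of member levels by capture shows these tiers.

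**Figure D1:**
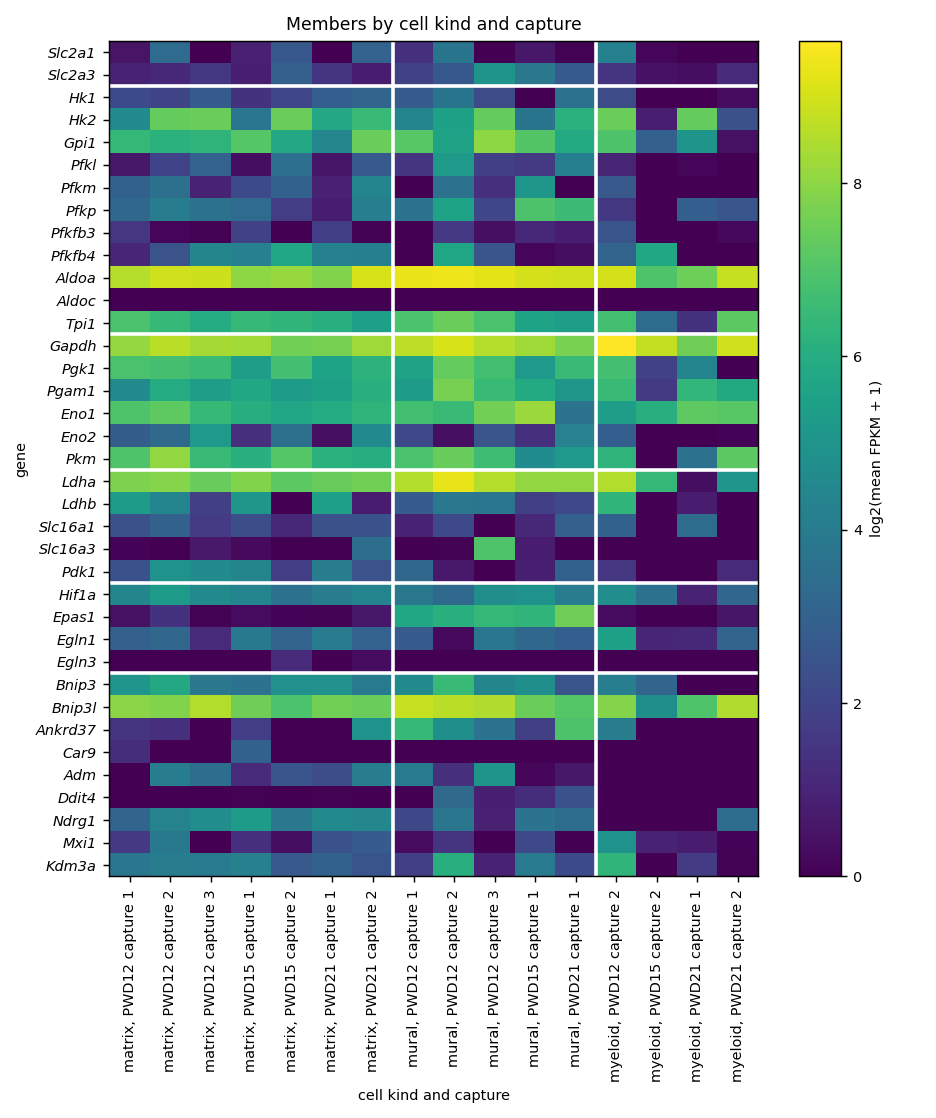
Heatmap of the 37 members (rows, grouped by role) against captures (columns: 7 matrix, 5 mural and 4 myeloid), coloured by log2(mean FPKM + 1). Epas1 is dark in all matrix and myeloid columns and bright in the 5 mural columns, and Aldoa and Gapdh are bright throughout.

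Several steps can be carried out by more than 1 isoenzyme, and their shares differed in spread. Hk2 made up 87.4 to 98.3% of Hk1 plus Hk2 in the 7 matrix captures, Eno1 71.3 to 99.5% of Eno1 plus Eno2, and Aldoa at least 99.99% of Aldoa plus Aldoc. Ldha was 80 to 100% of Ldha plus Ldhb in matrix and 96.7 to 99.1% in mural captures. Eno1 held 39.4 to 99.7% in mural captures, the lowest share in PWD21 capture 1, where Eno2 held 60.6%. Phosphofructokinase was mixed: Pfkp, the platelet form, held a median of 52.7% in matrix captures and 77.1% in mural captures, and its matrix range was 12.2 to 71.6%. Over matrix captures Slc2a1 made up 0 to 91.6% of both glucose transporters, and Pfkfb3 0 to 64.2% of Pfkfb3 plus Pfkfb4, so neither pair had 1 gene ahead in every capture. In myeloid captures, of 3 to 11 cells each, Ldha held 30.5 to 100% and Eno1 86.4 to 100%. Many of these enzymes have processed pseudogenes and close copies, among which the authors' estimation splits ambiguous reads, so the levels of single copies are uncertain. Across matrix cells within a capture, the median pair of 9 abundant glycolytic members was only weakly correlated, as a description. The 9 members were Gpi1, Aldoa, Tpi1, Gapdh, Pgk1, Pgam1, Eno1, Pkm and Ldha, a chosen list without Hk2. The median Spearman's rho over 36 pairs was between 0.03 and 0.25 over the 7 captures of 17 to 50 cells. Single pairs ran from -0.55 (PWD21 capture 1) to 0.87 (PWD12 capture 3). Between 20 (PWD21 capture 2) and 34 (PWD15 capture 1) of the 36 pairs were above 0. The values of a cell share its library depth.

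The mural cells, named by marker genes of pericytes and vascular smooth muscle, were compared with matrix cells of the same capture. The question was whether tdTomato-high cells of the 2 kinds differ in this pathway. Both kinds had at least 3 cells in 5 captures (PWD12 captures 1 to 3, PWD15 capture 1, PWD21 capture 1). Epas1, which encodes the HIF-2α subunit, was the 1 member called among 34 tested, higher in mural cells. In mural cells Epas1 read 52.3, 68.4, 84.6, 77.96 and 185 FPKM in these captures, and in matrix cells 0.337, 1.63, 0.0312, 0.207 and 0.0411. The ranges did not overlap. The log2 difference was 5.98 (SE 0.63, adjusted p = 0.00149), limma with Benjamini-Hochberg adjustment over 13823 genes. Over all genes, 1.71% passed the same threshold in either direction, 0.948% higher and 0.76% lower. Aldoc, Egln3 and Car9 were not tested because their means were under 1 FPKM. Epas1, Ddit4 and Slc16a3 reached that minimum through the mural cells alone, and Pfkfb3 through the matrix cells alone.

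Epas1 was above 0 in 51 of 57 mural cells (89.5%, exact 95% interval 78.5 to 96.0%), 55 of 198 matrix cells (27.8%, 21.7 to 34.6%) and 8 of 26 myeloid cells (30.8%, 14.3 to 51.8%). Among cells above 0 the median was 43.8 FPKM in mural and 0.24 FPKM in matrix cells. The intervals take the cells of all captures together and cover counting error only. Epas1 is known to be high in endothelial cells. Of the endothelial markers Cdh5 and Tek were at 0 in all 57 mural cells, Kdr was above 0 in 1, and the 5 markers summed to 0.403 to 38.6 FPKM in mural captures against 0.125 to 1.42 in matrix captures, with Emcn above 0 in 5 mural cells and Pecam1 in 24. The 4 skeletal muscle markers summed to 2.27 to 121 FPKM in mural and 0.0304 to 5.16 FPKM in matrix captures, mostly Des, which mural cells also use, while Ckm and Myh4 were at 0 in all 57 mural cells. The 9 matrix markers summed to 6115 to 21117 FPKM in mural and 24879 to 45216 FPKM in matrix captures. The part of these markers in the mural results was not tested. Epas1 was called in each of the 19 fits of this comparison, the alternatives included.

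By day, Epas1 in mural cells stood at 52.3, 68.4 and 84.6 FPKM in the 3 PWD12 captures, 77.96 in the PWD15 capture and 185 in the PWD21 capture. With 1 capture each at PWD15 and PWD21 no test of days was made in mural cells. In a fit of later days against PWD12, the mural minus matrix log2 difference of Epas1 differed by 1.28 (95% interval -1.60 to 4.17, adjusted p = 0.934). No member was called there (percentage of all 13823 genes called, 0%), and 3 of 34 were under an unadjusted p of 0.05 against 4.98% of all genes, Pfkp, Eno2 and Pfkfb4. The Pfkp value was 4.55.

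No other member passed the threshold. Ankrd37, an ankyrin repeat gene known as a HIF target, came nearest: mural captures read 87.9, 27.2, 11.8, 2.58 and 124 FPKM and matrix captures 1.79, 1.45, 0, 2.41 and 0. In these 5 captures the ranges did not overlap, but the matrix cells of PWD21 capture 2, which had no mural cells, read 29.4 FPKM. The log2 difference was 3.85 (SE 0.91, adjusted p = 0.0719). Ankrd37 was above 0 in 12 of 57 mural cells and 11 of 198 matrix cells. In each mural capture 2 or 3 cells were above 0, and the highest of them gave 57.1 to 96.8% of the capture's total, so both kinds' means rest on single cells.

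Among the enzymes, Aldoa read 655, 678, 601, 523 and 493 FPKM in mural captures and 377, 489, 474, 257 and 224 in the matrix cells beside them. It was higher in mural cells in 5 of 5 captures, with a log2 difference of 0.75 (SE 0.22, adjusted p = 0.1399). The 95% interval was 0.26 to 1.24. Ldha read 366, 640.3, 374, 270.4 and 268 in mural captures and 211, 238, 169, 225 and 168 in matrix captures, a difference of 0.86 (SE 0.27, adjusted p = 0.176), again higher in 5 of 5. Slc2a3, a high-affinity glucose transporter, read 2.69, 5.28, 30.4, 12.98 and 5.62 in mural and 0.942, 1.15, 1.95, 0.746 and 1.72 in matrix captures, a difference of 2.03 (SE 0.67, adjusted p = 0.193). Gapdh differed by 0.24 (SE 0.24, adjusted p = 0.676), Pkm by -0.61 (SE 0.39, adjusted p = 0.533) and Eno1 by 0.01 (SE 0.59, adjusted p = 0.994), a difference that was -0.10 with TPM scaling.

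In the other direction, Ndrg1, a stress-responsive gene, was lower in 5 of 5 captures. It read 3.26, 12.7, 0.834, 11.7 and 9.64 FPKM in mural and 7.88, 18.8, 25.2, 39.4 and 22.8 in matrix captures, a log2 difference of -1.65 (SE 0.66, adjusted p = 0.281). Pdk1, which inhibits pyruvate dehydrogenase, read 8.52, 0.597, 0.02, 0.822 and 6.97 in mural and 4.44, 29.1, 24.05, 20.2 and 15.5 in matrix captures, a difference of -2.53 (SE 0.87, adjusted p = 0.213). PWD12 capture 1 was the one capture in which Pdk1 was higher in mural cells. The members higher in 5 of 5 captures were Aldoa, Ankrd37, Epas1, Ldha and Slc2a3, 5 of 34, where 4.73% of all genes were so, and 1 member was lower in all 5 (8.47% of all genes). At an unadjusted p of 0.05, 6 members were higher (4.77% of all genes) and 2 lower (9.52% of all genes). The 6 were Aldoa, Ankrd37, Ddit4, Epas1, Ldha and Slc2a3, and the 2 were Ndrg1 and Pdk1. Epas1, which is in both counts of higher members, and Ddit4 reached the minimum of 1 FPKM through the mural cells alone. The members were also chosen with earlier results of these data known. These counts therefore cannot decide whether the pathway as a whole is higher in mural cells. The median log2 difference was 0.02 over the 34 tested members and -0.22 over all genes. With TPM scaling, in which the FPKM of a cell are brought to a common sum, these medians were -0.10 and -0.32, and without PWD12 capture 3 they were -0.19 and -0.26, so the members' median has no fixed sign.

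**Figure D2:**
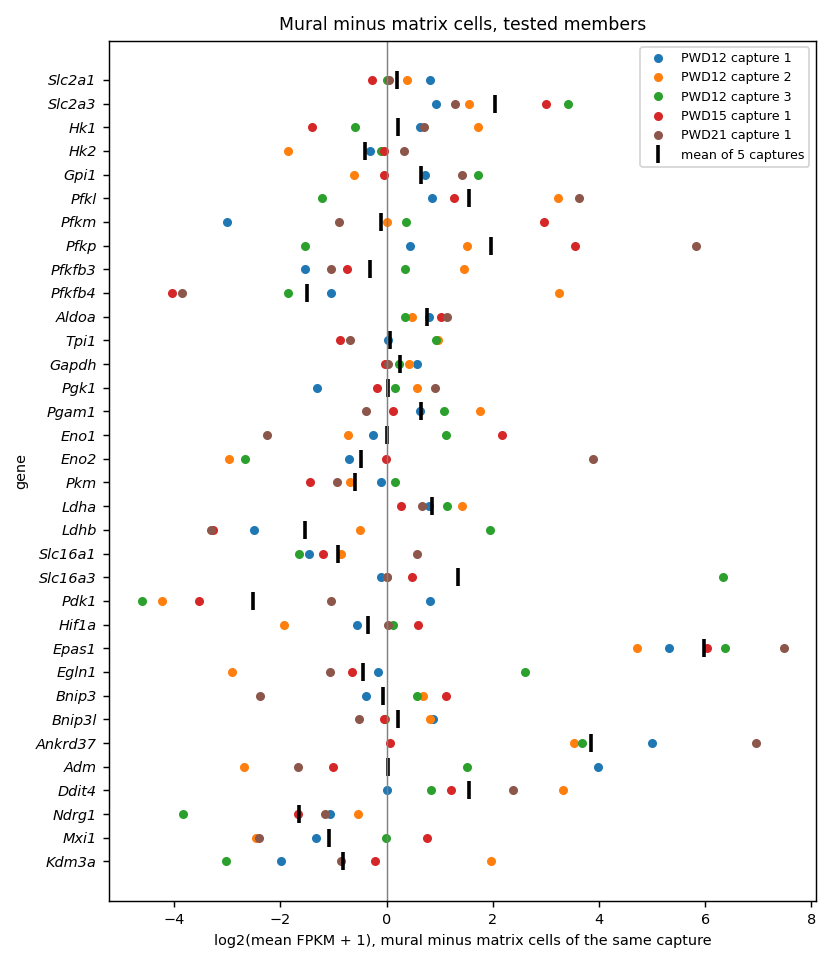
Difference in log2(mean FPKM + 1) between mural and matrix cells of the same capture (horizontal axis) for the 34 tested members (rows), 1 point a capture and a bar at the mean of 5 captures. Epas1 is far to the right in all 5 captures, Ankrd37 spreads widely, and Aldoa and Ldha are right of 0 throughout.

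**Figure D3:**
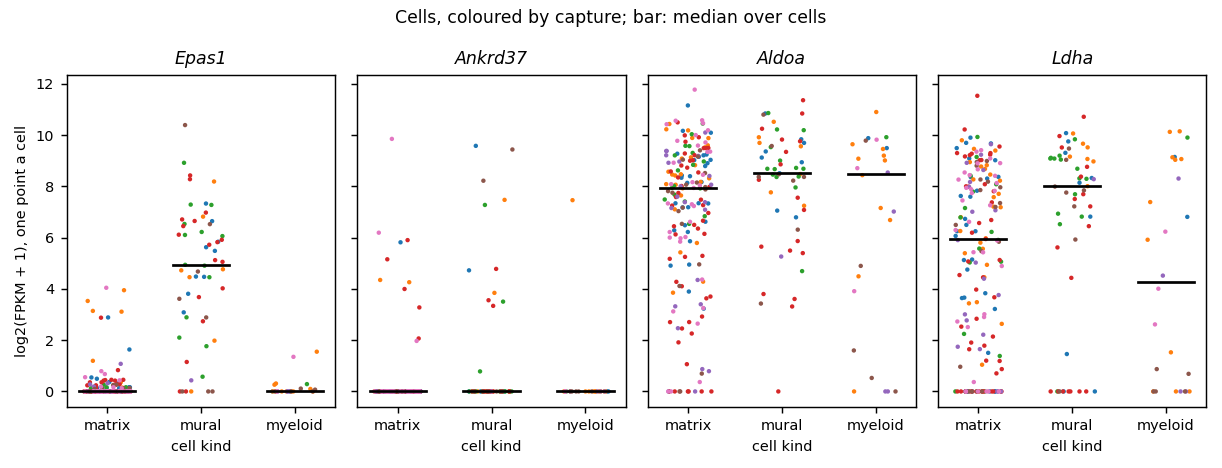
Per-cell log2(FPKM + 1) of Epas1, Ankrd37, Aldoa and Ldha for 198 matrix, 57 mural and 26 myeloid cells, coloured by capture, with a bar at the median over cells. Epas1 is above 0 in 51 of 57 mural cells, while most cells of every kind have 0 for Ankrd37.

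By role, the members with the extreme mural differences were as follows. In upper glycolysis Pfkp read 11.8, 47.6, 3.18, 121 and 96.5 FPKM in mural and 8.44, 15.95, 11.1, 9.399 and 0.717 in matrix captures, with a difference of 1.96 (SE 0.95, adjusted p = 0.385), the highest of its group, and Pfkfb4 had the lowest, -1.51 (SE 1.01, adjusted p = 0.55). In lower glycolysis Pgam1 had 0.64 (SE 0.46, adjusted p = 0.5801). In pyruvate and lactate fate Slc16a3, a lactate exporter, had 1.34 (SE 0.96, adjusted p = 0.573), a value carried by PWD12 capture 3 at 126 FPKM, against at most 0.576 FPKM in the matrix cells of these 5 captures. Among the HIF regulators Egln1, a prolyl hydroxylase, had -0.44 (SE 0.81, adjusted p = 0.844), and Hif1a had -0.36 (SE 0.57, adjusted p = 0.822) with levels of 13.5, 8.89, 25.9, 29.3 and 15.95 in mural and 20.5, 37.03, 23.7, 19.2 and 15.7 in matrix captures. Hif1a levels overlapped between the kinds. For glucose entry Slc2a1 had 0.20 (SE 0.57, adjusted p = 0.908). Ddit4, which restrains mTOR signalling, read 0, 9.203, 0.791, 1.42 and 4.39 in mural captures and at most 0.044 in matrix captures, with 1.55 (SE 0.65, adjusted p = 0.315).

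Of 73 further genes of glucose metabolism and hypoxia, 61 were tested and 1 was called in the mural comparison, 1.64% against 1.71% of all genes. Lox, which crosslinks collagen, was lower, with 12.6, 0.476, 31.4, 20.9 and 49.5 FPKM in mural and 95.3, 111, 137, 110.4 and 225 in matrix captures. Its log2 difference was -3.13 (SE 0.65, adjusted p = 0.0451), and the call was lost in 9 of 18 alternatives, each of the 5 fits without 1 capture among them.

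Myeloid cells in the tdTomato-high sort were compared with matrix cells in the same way, in 4 captures (PWD12 capture 2, PWD15 capture 2, PWD21 captures 1 and 2) of 11, 4, 5 and 3 myeloid cells. Adm, adrenomedullin, was the 1 member called among 31 tested, lower in myeloid cells. It was listed at 0 in all 4 myeloid captures and in all 26 myeloid cells, and without counts no limit can be set on what a value of 0 allows. Matrix captures read 15.4, 4.78, 3.88 and 16.1 FPKM. The log2 difference of -3.24 (SE 0.82, adjusted p = 0.0424) depends on the pseudocount of 1 FPKM, and no fold is given against 0. Over all 13059 genes, 6.59% were called, 1.69% higher and 4.9% lower. The call was lost in each of the 4 fits that left out 1 capture, and in 6 of the 12 other alternatives that tested it, among them the mean over cells of log2(FPKM + 1), a minimum of 5 cells and all cells. Adm passed the minimum level through the matrix cells alone.

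The other 30 tested members were not called. Ndrg1 read 0.0109, 0, 0 and 9.64 FPKM in myeloid and 18.8, 13.7, 22.8 and 20.8 in matrix captures, a log2 difference of -3.44 (SE 0.97, adjusted p = 0.0555). Bnip3, a mitophagy receptor, read 16.5, 7.76, 0 and 0 in myeloid and 55.6, 28.3, 28.7 and 15.3 in matrix captures, a difference of -3.09 (SE 1.05, adjusted p = 0.0899). Pgk1 read 108, 2.73, 19.5 and 0 in myeloid and 111, 107, 47.8 and 73.6 in matrix captures, a difference of -3.09 (SE 1.23, adjusted p = 0.135). The 3 genes varied widely among myeloid captures. Gapdh was the most abundant member in myeloid cells, with 798, 436, 188 and 490.4 FPKM against 398, 192, 204 and 309.6 in matrix captures, a difference of 0.68 (SE 0.53, adjusted p = 0.424). Gapdh was higher in 3 of 4 captures. Ldha read 373, 84.4, 0.288 and 31.5 in myeloid captures against 238, 147, 168 and 191, a difference of -2.44 (SE 1.19, adjusted p = 0.211).

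Besides Adm, 5 tested members (Slc2a3, Hk1, Pfkl, Slc16a3 and Pdk1) passed the minimum level through the matrix cells alone. Of the 31 tested members 29 had a negative difference, with a median of -1.19 against -0.998 over all genes (-1.49 and -1.20 with TPM scaling). With a minimum of 5 cells the members' median was -0.38 against -0.94 over all genes, with 22 members negative and 9 positive. The members' place relative to all genes therefore changed with this setting. What share of all genes had a negative difference was not computed. The 9 matrix markers summed to 99.3 to 16032 FPKM in myeloid captures, and their part in these differences was not tested. At an unadjusted p of 0.05, 9 members were lower (Adm, Bnip3, Eno2, Hk1, Ndrg1, Pdk1, Pfkl, Pfkm, Pgk1), where 23% of all genes were, and none was higher (4.49% of all genes). In all 4 captures 8 members were lower and 0 higher, against 26.4% and 5.34% of all genes. These shares lie near those of all genes, so they say nothing particular about the members. Pfkfb3, Aldoc, Epas1, Egln3, Car9 and Ddit4 were not tested. The extremes by role were Pfkm at -2.28 (SE 0.91, adjusted p = 0.134) and Aldoa at -0.42 (SE 0.55, adjusted p = 0.636) in upper glycolysis, Pdk1 at -2.62 (SE 0.88, adjusted p = 0.0861) and Slc16a1 at -0.62 (SE 0.89, adjusted p = 0.668) in pyruvate and lactate fate, Hif1a at -1.19 (SE 1.05, adjusted p = 0.474) and Egln1 at -0.62 (SE 1.10, adjusted p = 0.735) among the regulators, Slc2a1 at -1.17 (SE 0.92, adjusted p = 0.427) and Slc2a3 at -0.70 (SE 0.84, adjusted p = 0.602) for glucose entry, and Bnip3l at -0.40 (SE 0.77, adjusted p = 0.752) as the least negative hypoxia gene.

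**Figure D4:**
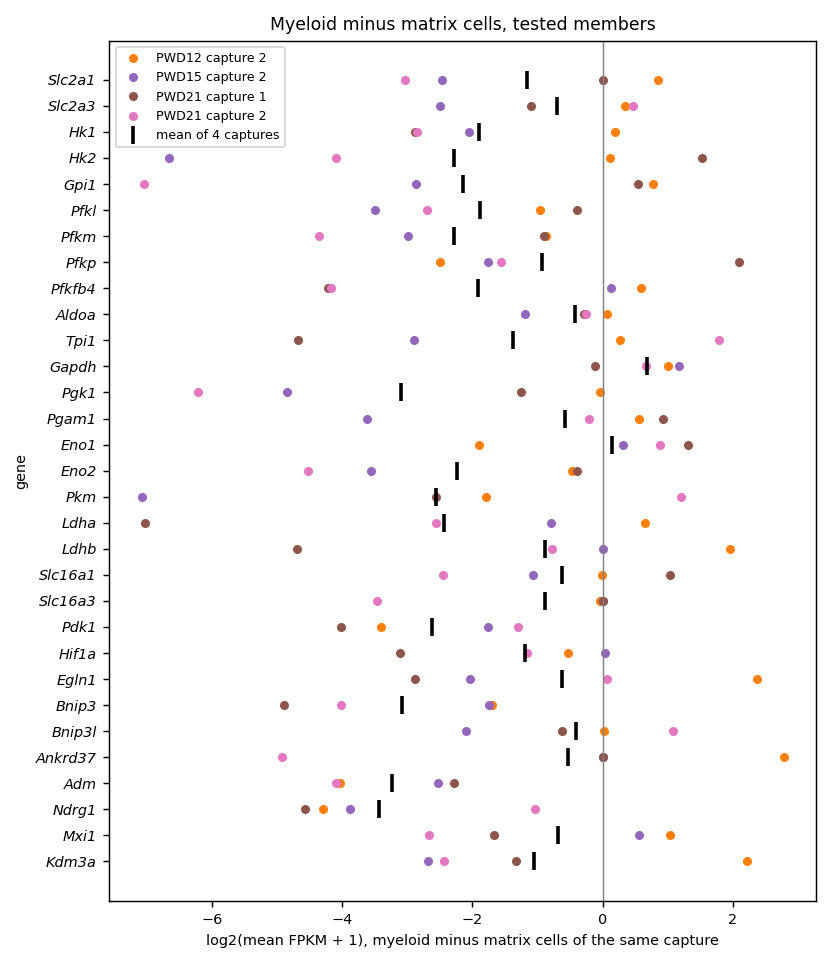
Difference in log2(mean FPKM + 1) between myeloid and matrix cells of the same capture (horizontal axis) for the 31 tested members (rows), 1 point a capture and a bar at the mean of 4 captures. Points lie mostly left of 0, and the captures of 1 gene often differ by several log2 units.

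Of the 73 further genes, 55 were tested and 5 were called in the myeloid comparison, 9.09% against 6.59% of all genes, and 2 higher and 3 lower. Cited2, which competes with HIF for a coactivator, read 40.1, 4.46, 29.1 and 15.7 FPKM in myeloid captures and 0.0115, 1.09, 0 and 0.878 in matrix captures, a difference of 3.70 (SE 0.97, adjusted p = 0.0462). Cxcr4, a chemokine receptor, read 52.6, 24.3, 22.5 and 0.173, and was at 0 in the matrix cells of these captures, with 3.80 (SE 1.02, adjusted p = 0.0486), a value that depends on the pseudocount of 1 FPKM. Cited2 and Cxcr4 reached the minimum of 1 FPKM through the myeloid cells alone and Plod2 through the matrix cells alone. Bpgm, Loxl2 and Plod2 were lower, with -4.13 (SE 1.12, adjusted p = 0.0496), -4.08 (SE 1.07, adjusted p = 0.0461) and -3.31 (SE 0.86, adjusted p = 0.0458). Loxl2 and Plod2 act on collagen and Bpgm makes 2,3-bisphosphoglycerate. Each of these 5 calls was lost in 9 or 10 of 16 or 17 alternatives, and Cxcr4 was the 1 that kept its call without PWD21 capture 2, while without any other capture all 5 were lost.

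Matrix cells of PWD12, PWD15 and PWD21 were compared to ask whether the pathway changed as the wounds healed, with 3, 2 and 2 captures. No member was called: 0 of 33 passed in each of the 3 comparisons, and of all 13552 genes 0% were called for PWD15 against PWD12, 0.00738% for PWD21 against PWD12 and 0% for PWD21 against PWD15. At an unadjusted p of 0.05 there were 3, 0 and 0 members, against 5.84%, 7.14% and 5.5% of all genes. Epas1, Aldoc, Egln3 and Ddit4 were not tested. At PWD15 against PWD12, Eno1 differed by -1.05 (SE 0.44, adjusted p = 0.8198). Its captures read 127, 152, 88.1, 63.3, 51.7, 60.2 and 75.3 FPKM, and the 4 captures of PWD15 and PWD21 were below all 3 of PWD12. Pfkfb4, which makes a regulator of phosphofructokinase, read 1.07, 4.52, 20.1, 17.2, 49.9, 17.6 and 17.1 with 2.29 (SE 0.97, adjusted p = 0.8198), and Bnip3l read 252, 223, 369.7, 185, 119, 193 and 171 with -0.88 (SE 0.39, adjusted p = 0.843). The captures of Bnip3l separated by day as those of Eno1 did. What share of all genes separates so was not computed, so this says nothing particular about either gene.

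The 95% intervals of single members were wide. For Ldha, PWD21 minus PWD12 was -0.18 (95% interval -1.01 to 0.64), for Gapdh -0.38 (-1.21 to 0.44), for Hif1a -0.56 (-1.91 to 0.78), and for Ldhb -0.72 (-4.46 to 3.02). The extremes at PWD21 against PWD12 were Pfkfb4 at 1.56 (SE 0.97, adjusted p = 0.769) and Eno2 at -1.29 (SE 1.29, adjusted p = 0.861). At PWD21 against PWD15 they were Mxi1 at 1.74 (SE 1.26, adjusted p = 0.895) and Car9 at -1.50 (SE 1.12, adjusted p = 0.897). The Car9 value rests on the few matrix cells above 0 for it, given above. Among 56 further genes tested none was called in the 3 comparisons. The smallest p-values there belonged to Pgm2 (adjusted p = 0.644), Crebbp (0.714) and P4ha2 (0.758) for PWD15 against PWD12, to Stc2 (0.569), Angptl4 (0.577) and Bpgm (0.615) for PWD21 against PWD12, and to Mpc1 (0.876), Lox (0.878) and Slc6a8 (0.887) for PWD21 against PWD15.

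**Figure D5:**
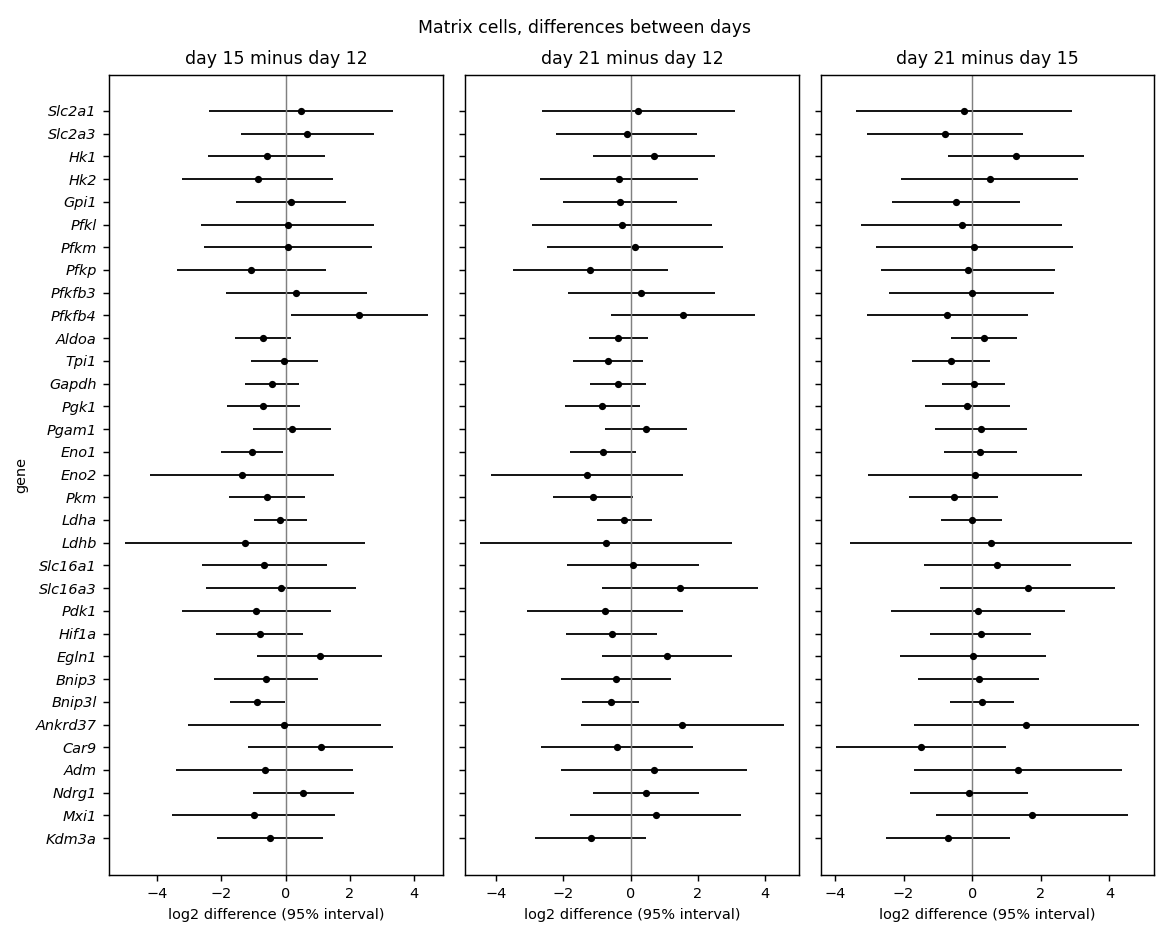
Log2 differences of the 33 tested members (rows) between days in matrix cells, with 95% intervals from limma, in 3 panels. In the left panel the intervals of Pfkfb4, Eno1 and Bnip3l exclude 0, and every other interval drawn includes 0.

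The 11 kept cells of no kind had Gapdh at 320.4 FPKM, Aldoa at 286 and Ldha at 244 on average, and Hk2 was above 0 in 3 of them, with 1192 FPKM in 1 cell. Slc16a3 rested on single cells: 1 mural cell of PWD12 capture 3 with 1762 FPKM gave 99.3% of the mural total, and 1 matrix cell with 344 FPKM gave 94.1% of the matrix total. In Ankrd37, 1 matrix cell with 924 FPKM gave 76.2% of the matrix total, and 1 mural cell of PWD12 capture 1 held 765 FPKM.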

How the data were processed

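Single tdTomato-high wound cells were profiled with full-length RNA-seq on a microfluidic capture system. According to the methods and the submitters' processing notes, the authors aligned reads to mm10 with Bowtie 1.0.0 and estimated expression with RSEM, and the deposited values are FPKM per gene and cell, with no counts. The droplet data of the study were not analysed here. Fragments per cell were estimated from the steps between FPKM values of 9420 single-transcript genes. The estimate was tried on simulated cells that held whole fragments only. That trial cannot show how reads split between genes affect it. Cells were kept with at least 159000 fragments, at most 11000 genes and at most 15% mitochondrial FPKM. The study's methods state that captures were viewed by microscopy and that wells with doublets or multiplets were excluded. Doublets were not called from the expression values here.

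The members, the list of 73 further genes and the cell kind limits were chosen with earlier results of these data known. FPKM was averaged over the cells of a kind in a capture (at least 3 cells) and tested as log2(mean FPKM + 1) with limma 3.58.1 in R 4.3.3, two-sided, with a variance trend, for genes whose mean over the values fitted reached 1 FPKM, and p-values adjusted by Benjamini-Hochberg at 0.05. Capture was a block for comparisons of kinds and not for days. Fold changes on this scale understate changes of low genes. All members were reported, with full values for called members and for the highest and lowest of each role, and for the further genes those called, or the 3 smallest p-values. Further genes named by their p-value and single cells with high values were named after the values were seen. Gene symbols and positions came from GENCODE (GRCm38), which matched 50376 of 50600 identifiers. Alternatives were pseudocounts, means of logs, TPM scaling, filters, kind limits, cell numbers, weights, no variance trend, the block and each capture left out.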

Additional observations from a re-analysis of the deposited data

Results flagged for a closer look

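The lactate exporter Slc16a3 had a capture far from the others in both comparisons of kinds. In mural minus matrix cells PWD12 capture 3 stood at 6.33 on the log2(mean FPKM + 1) scale, while the other 4 captures lay between -0.11 and 0.48. In that capture 1 mural cell held 1762 FPKM, and Slc16a3 was above 0 in 3 of 57 mural cells. In myeloid minus matrix cells PWD21 capture 2 stood at -3.47 and the other 3 captures between -0.04 and 0. There the level came from matrix cells, 1 of which held 344 FPKM, and Slc16a3 was above 0 in 0 of 26 myeloid cells. Of 65 sets of captures tested, 2 stood out, and chance alone marks about 1 in 20.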

How the results depend on the processing

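In the mural comparison 1 member was called, and 2 (Epas1 and Ankrd37) with the mean over cells of log2(FPKM + 1), stricter kind limits or no capture block. Leaving out 1 capture gave 1 to 2, the 2 without PWD15 capture 1. In the myeloid comparison 1 member was called, and 0 with a pseudocount of 10 FPKM, no filter on low values, a mean of at least 10 FPKM, all cells, at least 5 cells or no variance trend. Leaving out any 1 capture gave 0. With the mean over cells of log2(FPKM + 1) the count was again 1, but it was Pgk1 (-2.47, adjusted p = 0.035 by limma) and no longer Adm (adjusted p = 0.127). With stricter kind limits it was Adm. It was 2 (Adm and Ndrg1) with a pseudocount of 0.1 FPKM, TPM of all or nuclear genes, weights by cells or no capture block. The cause was not tested. Same-numbered captures of different days correlated between -0.007 and 0.025 in their deviations from the mean of their day. This cannot decide whether the numbers stand for a shared animal or batch. The 2 captures of PWD15, and those of PWD21, mirror each other in these deviations, and the labels do not say. A replicate block in the comparisons of days gave 0 members called, as did every other alternative there.

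For the 53 differences of single genes that were recomputed, 933 values were obtained under alternatives. Of these 836 kept direction and side of the threshold, 67 lost the call, 10 gained it and 20 changed sign, in 12 differences, none of them called. In mural minus matrix cells Eno1 went from 0.01 to -0.29 (mean of logs), -0.0007 (pseudocount of 0.1 FPKM), -0.0996 and -0.0903 (TPM of all and of nuclear genes), Pfkfb4 to 0.0284 (mean of logs) and Slc2a1 to -0.36 (all cells). Leaving out 1 capture gave -0.53 to 0.58 for Eno1, -1.20 to 0.18 for Egln1 and -0.59 to 0.0413 for Hif1a. In myeloid minus matrix cells Bnip3l went to 0.29 (all cells), Egln1 to 0.019 (weights by cells), and Slc16a1 to 0.52 and Slc2a1 to 0.42 (at least 5 cells). Leaving out 1 capture gave -0.90 to 0.16 for Bnip3l and -1.62 to 0.13 for Egln1. For PWD21 against PWD12 Ldha went to 0.0021 (all cells), and leaving out 1 capture gave -3.40 to 0.83 for Eno2 and -3.05 to 1.60 for Ldhb. The median over members in the mural comparison was 0.02, and was negative with TPM (-0.10 and -0.09), stricter kind limits (-0.06) and without PWD12 capture 3 (-0.19).

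Genes called over the whole table ranged from 19 to 657 around 236 (mural) and from 31 to 1365 around 861 (myeloid). Some captures held 3 or 4 myeloid cells, and 1 capture each carried enough mural cells at PWD15 and PWD21. Without counts the sampling error of a low FPKM value is not known. The fits of later days against PWD12 between kinds were made in 1 setting.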
